A study of Homo sapiens with 6 samples.

Results

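Ezrin (EZR), radixin (RDX) and moesin (MSN), together the ERM proteins, and 4 genes that work beside them were read in MCF-10A cells with ectopic CRB3 and in vector control cells. The partners were the scaffold NHERF1 (older symbol SLC9A3R1), the surface proteins PODXL and PDZK1IP1, and MYLIP, a ubiquitin ligase with a FERM domain. The 7 genes were chosen with earlier results of these data known, and their probe sets by gene symbol. A probe set is the group of oligonucleotides that reads a transcript on the array. Each was taken if the platform annotation names it for one of these 7 genes alone. This gave 21 probe sets of 54613 tested, and 7 genes of 19775 with such a probe set. The MCF-10A line comes from non-malignant human mammary epithelium and grows indefinitely without being tumorigenic. The CRB3-expressing cells (CRB3 cells, 3 arrays) were infected with a pNG retrovirus that carries Crb3, and the vector control cells (vector cells, 3 arrays) with the empty pNG vector. Both were selected with puromycin, grown in normal MCF-10 growth medium, which holds EGF, and harvested as proliferating monolayers at 70% confluence. No source used here says that the 3 RNA samples of a group came from separate infections, so p-values measure the spread between these samples only.

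ERM proteins link the plasma membrane to cortical actin. Their amino-terminal FERM domain binds the cytoplasmic tails of membrane proteins or adaptors, and their carboxy-terminal tail binds F-actin once the closed, autoinhibited form has been opened by phosphoinositide binding and phosphorylation. In epithelia they organize microvilli and the apical cortex, where NHERF1 ties ERM proteins to channels, transporters and the sialomucin podocalyxin (PODXL). The cytoplasmic tail of CRB3 carries a juxtamembrane motif that FERM domains bind, and the comparison of the arrays asks which transcripts of this machinery changed with ectopic CRB3.

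The promoters of 3 members are shown because these genes differed in the direction or size of their change: EZR and PDZK1IP1, which had higher values in CRB3 cells, and RDX, which had lower ones. Each is the 250 bases before a start site in the RefSeq table of the build GRCh38.p14, 5′ to 3′ on the strand of the gene, with GC boxes (GGGCGG or its complement CCGCCC on the other strand) in capitals. EZR lies on the minus strand at chr6:158818236-158818485, RDX on the minus strand at chr11:110296615-110296864, and PDZK1IP1 on the minus strand at chr1:47190037-47190286.
EZR: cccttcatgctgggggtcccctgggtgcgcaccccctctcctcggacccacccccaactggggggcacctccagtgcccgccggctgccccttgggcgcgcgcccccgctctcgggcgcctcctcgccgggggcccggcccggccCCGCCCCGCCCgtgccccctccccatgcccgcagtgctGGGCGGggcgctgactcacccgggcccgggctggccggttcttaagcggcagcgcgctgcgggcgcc
RDX: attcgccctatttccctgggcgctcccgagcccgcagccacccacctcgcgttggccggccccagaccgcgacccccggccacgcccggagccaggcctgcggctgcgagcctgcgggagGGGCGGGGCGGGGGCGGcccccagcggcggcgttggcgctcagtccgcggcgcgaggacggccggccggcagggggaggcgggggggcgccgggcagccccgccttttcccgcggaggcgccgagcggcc
PDZK1IP1: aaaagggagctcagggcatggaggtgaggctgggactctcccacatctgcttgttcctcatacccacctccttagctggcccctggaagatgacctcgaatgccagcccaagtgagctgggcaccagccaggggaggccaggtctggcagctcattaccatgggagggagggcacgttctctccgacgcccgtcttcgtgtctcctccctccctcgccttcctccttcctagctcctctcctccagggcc
EZR and RDX each held 3 GC boxes, some of them overlapping, with a GC content of 80.8% for EZR and 82.0% for RDX. PDZK1IP1 held 0, with a GC content of 62.4%, against a median of 58.0% over 35116 promoters. Of these promoters, 42.6% held a GC box. The Snail-type E-box CACCTG (or CAGGTG), present in 17.5% of promoters, was in 0 of the 3. The TATA box TATAAA (or TTTATA, 10.7% of promoters) was in 0 of them too, and so was the CCAAT box (CCAAT or ATTGG, 32.0%). These are matches of letters in one window each, and 6 of the 7 members had an entry in the table, PODXL being the exception.

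The deposited values are log2 values of the Robust Multichip Average (RMA) method, 1 per probe set and array, and a difference of 1 on this scale is a 2-fold change. Array medians were 5.84 to 5.88, and Pearson's r over all probe sets was 0.9974 to 0.9978 within groups and 0.9942 to 0.9959 across groups. CRB3 itself averaged 12.11 ± 0.10 on the CRB3 arrays and 7.78 ± 0.17 on the vector arrays (SD, n = 3 each). Epithelial markers were present in both groups, KRT5 reading 13.58 in CRB3 cells and 13.62 in vector cells. Of the 9 measured epithelial markers of a list of 12, 3 were called higher (KRT14, KRT8 and CDH1), against 1.43% of all genes. KRT18 (log2 difference 0.36) and EPCAM (0.38) passed the adjusted p from limma and not the fold threshold. The summed log2 level of the 9 was 107.91 to 108.64 on CRB3 arrays and 103.43 to 103.61 on vector arrays. Of 8 fibroblast markers 1 was called lower (DCN, log2 difference -0.76), against 0.465% of all genes. The summed level of the 8 was 43.43 to 44.02 on CRB3 arrays and 43.99 to 44.57 on vector arrays, and 6 of the 8 lay under 6. The exceptions were DCN, at 6.93 in CRB3 cells and 7.68 in vector cells, and COL1A1, at 8.02 in CRB3 cells and 8.01 in vector cells. The summed level of 4 leukocyte markers of 6 was 21.28 to 22.19 on CRB3 arrays and 21.73 to 21.88 on vector arrays. That of 5 endothelial markers was 26.79 to 27.31 on CRB3 arrays and 26.55 to 26.94 on vector arrays, with 0 called in either list (limma, 0 at an unadjusted p under 0.05). Of the leukocyte markers 3 lay under 6, PTPRC among them at 4.19 in CRB3 cells and 4.16 in vector cells, and CD14 read 8.27 in CRB3 cells and 8.32 in vector cells. The part of these markers in the results below was not tested. In such bulk RNA, fewer cells that use a gene and less of its RNA per cell cannot be told apart.

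The surface partners PODXL and PDZK1IP1 rose about 2-fold in CRB3 cells, EZR was higher by about 1.45-fold, just under the fold threshold in its brightest probe set, MSN lay within 0.005 of no difference on the log2 scale, and RDX had slightly lower values. A probe set was called where limma gave an adjusted p under 0.05 over all probe sets and the fold change exceeded 1.5, which is 0.585 on the log2 scale. Read in the brightest probe set of each gene, 2 of the 7 members were called higher and 0 lower, where 1.43% of all 19775 genes were called higher and 0.465% lower. At an unadjusted p under 0.05 from limma, 4 members were higher and 1 lower. The share of all genes at that looser threshold was not counted, so the shares above are no measure for it. Over all 21 probe sets, 4 were called higher, 1 lower and 16 were not called (0.948% and 0.363% of all 54613 probe sets). With the adjusted p alone, 3 of 7 genes passed, all higher, where 3.37% of all genes passed higher and 1.77% lower, and 7 of the 21 probe sets passed higher and 2 lower, where 2.24% and 1.39% of all probe sets did. The groups did not overlap, with CRB3 values above, for 4 members, and with CRB3 values below for 1, against 14.5% and 12.1% of all genes. By probe set the groups were apart in 8 with CRB3 values above and in 5 with CRB3 values below, against 11.1% and 10.7% of all. The median log2 difference of the 7 members was 0.18, and of all genes 0.0066. Because the members were chosen with earlier results of these data known, the shares and medians describe these genes and test no enrichment.

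**Figure D1:**
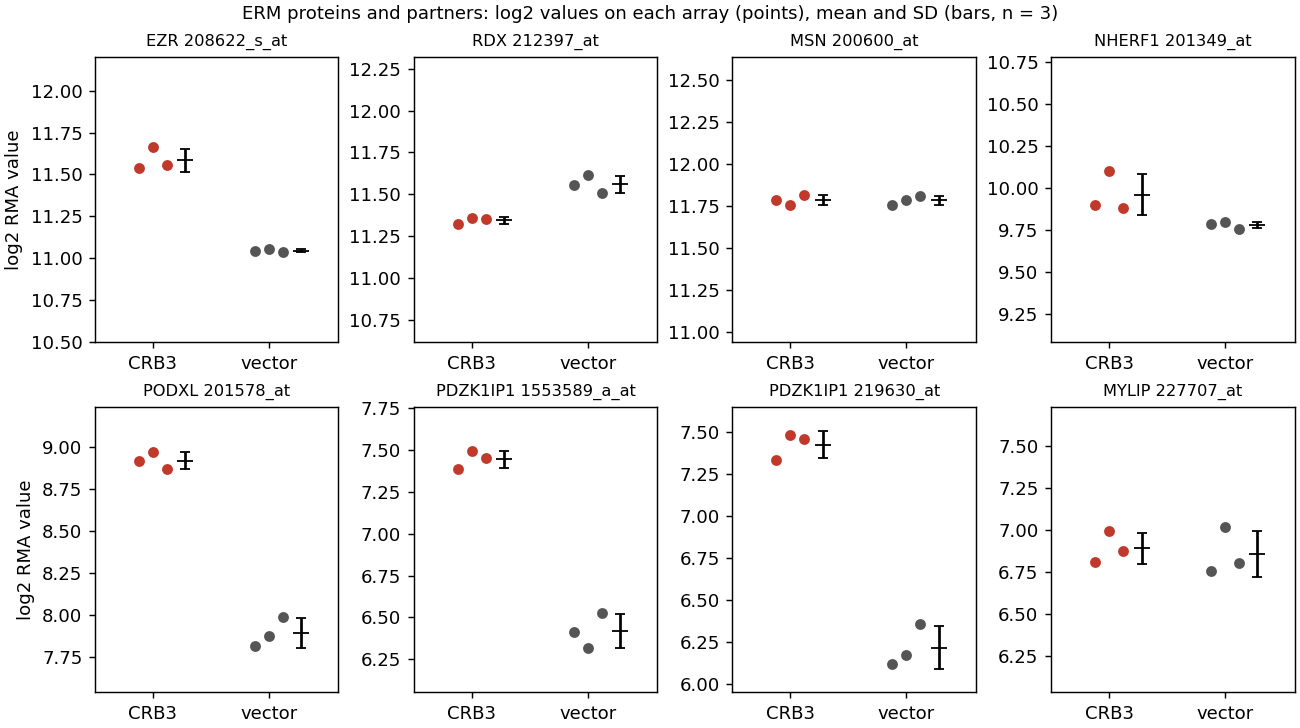
Log2 RMA value (y axis, each panel spanning 1.7 log2 units) of the brightest probe set of each member, and of the second PDZK1IP1 probe set, on the 3 CRB3 arrays (red) and the 3 vector arrays (grey); black marks give the mean ± SD of 3 arrays. PODXL and both PDZK1IP1 probe sets lie about 1 unit higher in CRB3 cells, EZR lies 0.54 higher, RDX lies 0.21 lower, and the groups overlap for MSN and MYLIP.

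Ezrin is the ERM protein of epithelial microvilli, where it anchors actin bundles to the apical membrane. Its brightest probe set, 208622_s_at, read 11.54, 11.66 and 11.55 on the CRB3 arrays and 11.04, 11.06 and 11.04 on the vector arrays. Every CRB3 array lay above every vector control array, with a gap of 0.48 between the groups. The log2 difference was 0.54 (SE 0.063, 95% interval 0.40 to 0.68, adjusted p = 0.00157), a 1.45-fold difference that passed the test and not the fold threshold. The second probe set, 208623_s_at, had a mean of 11.27 ± 0.029 in CRB3 cells and 10.82 ± 0.0099 in vector cells (SD, n = 3 each) and a 1.36-fold difference (adjusted p = 0.00296). The third, 217234_s_at, averaged 11.16 ± 0.046 in CRB3 cells and 10.65 ± 0.047 in vector cells (SD, n = 3 each), a 1.42-fold difference (adjusted p = 0.00211). These 3 probe sets passed the adjusted p and stayed under 1.5-fold.

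Of the EZR probe sets, 208621_s_at was the one called. It read 10.87, 10.97 and 10.99 in CRB3 cells and 10.30, 10.41 and 10.35 in vector cells, with a log2 difference of 0.59 (SE 0.065, adjusted p = 0.00116) that lies just over the threshold of 0.585. It fell under that threshold without CRB3 replicate 2 (0.577), CRB3 replicate 3 (0.568) or vector control replicate 1 (0.567), and after the arrays were median-centred again (0.578) or given quality weights (0.584), each time with an adjusted p that passed. The 4 bright probe sets thus gave differences between 1.36-fold and 1.51-fold, and each kept the groups apart. The dim remaining probe set, 217230_at, read 6.28, 6.48 and 5.89 in CRB3 cells against 5.93, 6.22 and 5.70 in vector cells, so that the groups overlapped (log2 difference 0.27, SE 0.17, adjusted p = 0.478). It was 0.14 without CRB3 replicate 2 or vector control replicate 3, 0.43 without CRB3 replicate 3 and 0.41 without vector control replicate 2, and passed in none of these. The 5 probe sets read 1 gene and are no replicates of each other, and 4 of them carry the suffix _s_at, which marks oligonucleotides that may match several transcripts.

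Moesin, the ERM protein that prevails in leukocytes and endothelium, is also present in cultured epithelial lines. Its brightest probe set, 200600_at, read 11.79, 11.76 and 11.82 on the CRB3 arrays and 11.76, 11.79 and 11.81 on the vector arrays. The values of the groups interleaved, and the log2 difference was 0.0047 (95% interval -0.13 to 0.14, adjusted p = 0.981), so the interval does not reach the fold threshold on either side. The second MSN probe set, 233749_at, was dim, at 5.15 in both groups, with a log2 difference of -0.00099 (95% interval -0.13 to 0.13).

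Radixin, the third paralog, is the main ERM protein of hepatocyte bile canaliculi and hair cell stereocilia. Its brightest probe set, 212397_at, read 11.32, 11.36 and 11.35 in CRB3 cells and 11.56, 11.61 and 11.51 in vector cells. All CRB3 arrays lay below all vector arrays, by a log2 difference of -0.21 (SE 0.061, 95% interval -0.35 to -0.077), which did not pass (adjusted p = 0.108). The second probe set, 212398_at, read 9.54, 9.53 and 9.50 in CRB3 cells against 9.85, 9.73 and 9.89 in vector cells, a log2 difference of -0.30 (SE 0.066, adjusted p = 0.0448) that passed the adjusted p and not the fold threshold. The third, 204969_s_at, averaged 8.45 ± 0.058 in CRB3 cells and 8.75 ± 0.088 in vector cells (SD, n = 3 each), with a log2 difference of -0.30 and an adjusted p of 0.0552. The groups did not overlap in these 3 probe sets, where 10.7% of all probe sets showed the same separation downward. The dim 244739_at lay at 3.67 in CRB3 cells and 3.70 in vector cells, where no change could be read. The replicate number as a block in the fit gave 212398_at an adjusted p of 0.0990, and without single arrays its adjusted p ranged from 0.0437 to 0.139. With limma's mean-variance trend and robust prior, 212397_at (0.00625) and 212398_at (0.00556) passed the adjusted p. Among probe sets of a mean over 7 both passed too (0.0185 and 0.00781), and with an ordinary pooled variance neither did (0.0947 and 0.113). As the mean over its probe sets RDX had -0.21 (limma, adjusted p = 0.0324). The fold change stayed under 1.5 each time.

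The changes of the 3 paralogs were set against each other within arrays. EZR and RDX had differences of opposite sign, that of RDX not passing the test in its brightest probe set. Their windows printed above held 3 GC boxes each. The windows of MSN (1 at start site 1 and 4 at start site 2), NHERF1 (4) and MYLIP (3), not printed, held GC boxes too. A part of these boxes in the changes was not tested. The EZR value minus the MSN value was -0.25, -0.098 and -0.27 on the CRB3 arrays and -0.71, -0.73 and -0.77 on the vector arrays, so that EZR moved by 0.53 more than MSN. The EZR value minus the RDX value was 0.21, 0.30 and 0.20 on the CRB3 arrays and -0.51, -0.56 and -0.47 on the vector arrays, a difference in change of 0.75. In both cases every CRB3 array lay above every vector control array, and the exact two-sided permutation test gave p = 0.1, the smallest that 3 against 3 arrays allow (0.1 after Benjamini-Hochberg adjustment over 3 such tests). This design cannot reach 0.05 with that test. The single values hold levels of different probe sets and are no ratio of transcript amounts.

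**Figure D2:**
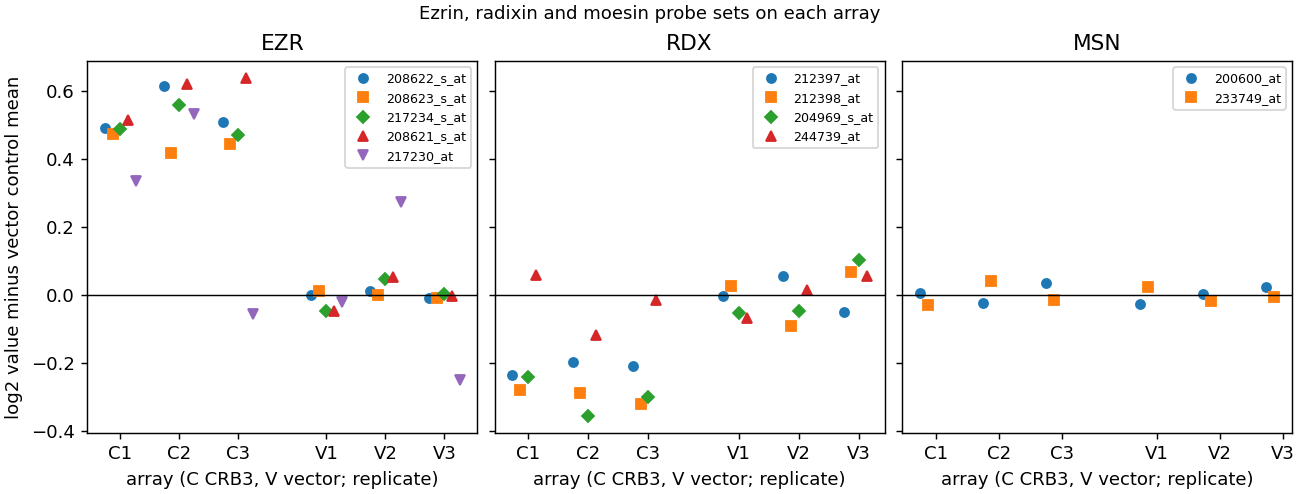
Log2 value minus the vector control mean of the same probe set (y axis) for every EZR, RDX and MSN probe set (symbols) on the CRB3 arrays (C1 to C3) and the vector arrays (V1 to V3) (x axis). The 4 bright EZR probe sets lie between 0.4 and 0.7 on the CRB3 arrays, 3 RDX probe sets lie below -0.1, and both MSN probe sets stay within 0.05 of 0.

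NHERF1 (EBP50), whose PDZ domains hold channels, transporters and podocalyxin while its tail binds the FERM domain of ERM proteins, did not pass the test. Its only probe set, 201349_at, read 9.90, 10.10 and 9.88 in CRB3 cells and 9.79, 9.80 and 9.76 in vector cells. The groups were apart by 0.085, and CRB3 replicate 2 was the highest array. The log2 difference was 0.18 (SE 0.075, 95% interval 0.010 to 0.35), with an unadjusted p of 0.0401 and an adjusted p of 0.278. Without CRB3 replicate 2 it was 0.11 (adjusted p = 0.545).

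PODXL encodes podocalyxin, a sialomucin of the CD34 family that marks apical membranes and binds NHERF1 through its carboxy-terminal PDZ ligand. Its only probe set, 201578_at, read 8.92, 8.97 and 8.87 on the CRB3 arrays and 7.81, 7.87 and 7.99 on the vector arrays. The lowest CRB3 array lay 0.88 above the highest vector control array. PODXL rose 2.04-fold (log2 difference 1.03, SE 0.069, 95% interval 0.87 to 1.19, adjusted p = 6.04e-05), and 106 of 19775 genes, PODXL among them, had a rise of at least this size. The log2 difference was between 0.99 and 1.08 over all alternatives, and it was called in each of them.

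PDZK1IP1 (MAP17) is a small membrane protein of the proximal tubule and of many carcinomas whose tail binds PDZ scaffolds of the NHERF family. Its brightest probe set, 1553589_a_at, read 7.39, 7.49 and 7.45 in CRB3 cells and 6.41, 6.32 and 6.52 in vector cells. The second, 219630_at, read 7.33, 7.48 and 7.46 in CRB3 cells and 6.12, 6.17 and 6.36 in vector cells. In both probe sets the groups were far apart, by 0.86 and 0.97. PDZK1IP1 rose 2.03-fold in the first (log2 difference 1.02, SE 0.072, adjusted p = 7.95e-05) and 2.31-fold in the second (log2 difference 1.21, SE 0.081, adjusted p = 6.08e-05). Its levels were low in vector cells, at 6.42 ± 0.10 and 6.21 ± 0.13 (SD, n = 3 each), and such dim values can understate a change.

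**Figure D3:**
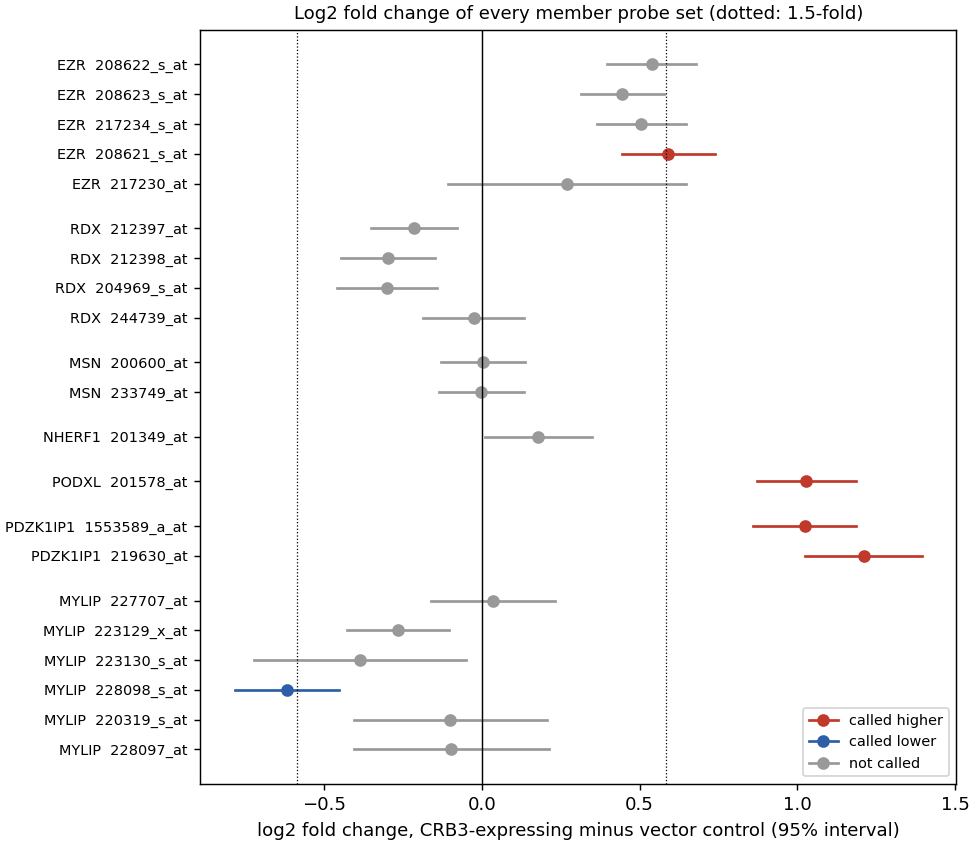
Log2 fold change, CRB3 minus vector (x axis), of all 21 member probe sets (y axis, brightest first within a gene); bars are 95% intervals and dotted lines mark a 1.5-fold change. The PODXL probe set and both PDZK1IP1 probe sets lie near or above 1, the 4 bright EZR probe sets between 0.44 and 0.59, and those of MYLIP between -0.62 and 0.034.

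MYLIP (also IDOL) joins a FERM domain to a RING finger and ubiquitinates the LDL receptor family, and its transcription is driven by the oxysterol receptors LXR. Its 6 probe sets differed in the size and sign of their change. The brightest, 227707_at, read 6.81, 6.99 and 6.87 in CRB3 cells and 6.75, 7.02 and 6.80 in vector cells, with overlapping groups and a log2 difference of 0.034 (95% interval -0.16 to 0.23, adjusted p = 0.891). In contrast, 228098_s_at read 5.38, 5.24 and 5.36 in CRB3 cells and 6.01, 5.85 and 5.98 in vector cells. It was called lower, with the groups apart by 0.46 and a log2 difference of -0.62 (SE 0.073, 95% interval -0.78 to -0.45, adjusted p = 0.00166). Both group means of this probe set lie under 6, and it was no longer called without CRB3 replicate 2 (-0.574), without vector control replicate 1 (-0.585, just short of the fold threshold) or with an ordinary pooled variance (adjusted p = 0.0537 from the unmoderated model over all probe sets).

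The other MYLIP probe sets had log2 differences of -0.26 for 223129_x_at (adjusted p = 0.0941), -0.39 for 223130_s_at (adjusted p = 0.237), -0.099 for 220319_s_at (adjusted p = 0.780) and -0.097 for 228097_at (adjusted p = 0.788), and none of these was called. The groups did not overlap for 223129_x_at, at 6.10, 6.22 and 6.05 in CRB3 cells against 6.31, 6.46 and 6.40 in vector cells. They overlapped for 223130_s_at, at 5.94, 5.73 and 5.86 in CRB3 cells against 5.88, 6.26 and 6.55 in vector cells, where the vector SD of 0.33 was the largest of any member. Its log2 difference was -0.56 without vector control replicate 1, which passed the adjusted p (0.0379) and not the fold threshold, and -0.23 without vector control replicate 3 (adjusted p = 0.445). As the mean over its probe sets, MYLIP had a log2 difference of -0.24 (adjusted p = 0.0953), opposite in sign to its brightest probe set. The change of 228098_s_at minus that of 227707_at, a pair chosen after the values were seen, was -0.65 (exact two-sided permutation p = 0.1, the smallest possible, n = 3 each). Which transcripts these probe sets read was not examined here.

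**Figure D4:**
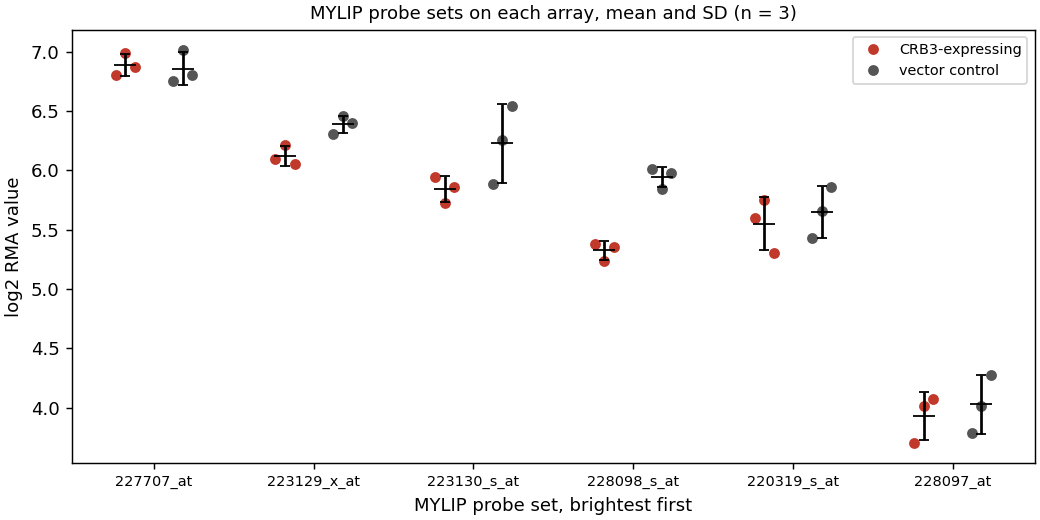
Log2 RMA value (y axis) of the 6 MYLIP probe sets (x axis, brightest first) on the 3 CRB3 arrays (red, left) and the 3 vector arrays (grey, right); black marks give the mean ± SD of 3 arrays. Groups overlap at the brightest probe set, at means of 6.89 in CRB3 cells and 6.86 in vector cells, and are apart at 228098_s_at, at 5.33 in CRB3 cells and 5.94 in vector cells.

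Other genes of the same pathway were read from 5 lists, each gene in its brightest probe set. Among surface proteins that bind ERM proteins or NHERF scaffolds, 3 of 16 measured genes were called higher, 0 were called lower and 13 were not called. One of the 3 is CRB3, the gene that was introduced, and without it 2 of 15 were called higher (1.43% of all genes), namely MUC1, a transmembrane mucin, at 11.66 ± 0.055 in CRB3 cells and 9.74 ± 0.088 in vector cells (SD, n = 3 each), and L1CAM, an adhesion molecule that binds ezrin, at 8.01 ± 0.26 in CRB3 cells and 5.40 ± 0.20 in vector cells. The second L1CAM probe set had a log2 difference of 0.47 and was not called. CD44, the hyaluronan receptor and the classical ERM ligand, had a log2 difference of -0.36 (adjusted p = 0.00923) and podoplanin (PDPN) one of -0.46 (adjusted p = 0.00966), while ICAM1 had one of 0.39 (adjusted p = 0.0247), all under the fold threshold and named after their values were seen. The median of the list, with CRB3 included, was 0.021, close to the 0.0066 of all genes. Without CRB3 the middle gene of the 15 was MCAM, at -0.027.

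Of 13 measured genes of NHERF scaffolds and their PDZ ligands, 1 was called higher (1.43% of all genes) and 0 lower, with 12 not called. It was SLC22A5, the carnitine transporter OCTN2, whose brightest probe set had a log2 difference of 0.63 (SE 0.057, adjusted p = 0.000354), while the second had 0.31 and was not called. As the mean over both probe sets SLC22A5 had 0.47 and was not called.

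Of 17 genes of microvilli and actin partners, 1 was called higher (1.43% of all genes) and 0 lower. EPS8L1, of the EPS8 family of actin regulators, averaged 8.86 ± 0.051 in CRB3 cells and 7.97 ± 0.062 in vector cells (SD, n = 3 each), a log2 difference of 0.89 (SE 0.065, adjusted p = 9.6e-05). Of its other 4 probe sets, 3 were called higher with log2 differences between 0.71 and 0.92, and 1 was not called (0.38). Its call was lost when limma tested against the fold threshold itself (adjusted p = 0.130). Of 46 measured genes with other FERM domains, 1 was called higher and 0 lower, a share near the 1.43% of all genes. With the adjusted p alone, 4 of these 46 passed higher and 1 lower, where 3.37% of all genes passed higher and 1.77% lower. Of the 17 microvillus and actin genes, 4 passed higher and 1 lower, NF2 being higher in both lists. The called FERM gene was EPB41L4B, called in 1 of its 6 probe sets, the brightest, at a log2 difference of 0.62. Its second-brightest probe set had 0.49 (adjusted p = 0.0264), under the fold threshold, and the remaining ones did not pass the adjusted p. The call was lost without vector control replicate 1 (0.53) and as the mean over probe sets (0.29). It was also lost with an ordinary pooled variance (adjusted p = 0.0923) and in limma's test against the fold threshold. The brightest probe set not marked _s_at or _x_at was not called either (0.081), but it was dim, at 5.25 in CRB3 cells and 5.17 in vector cells. Of the MYLIP targets and LXR genes, 6 of 10 were measured and 0 were called in their brightest probe sets (limma, 3 at an unadjusted p under 0.05). The 2 with the smallest p there were the LXR-driven sterol exporter ABCG1 (log2 difference -0.38, adjusted p = 0.0522) and SREBF1 (-0.30, adjusted p = 0.131). The second ABCG1 probe set was called lower, at 3.92 in CRB3 cells and 4.92 in vector cells (adjusted p = 0.000140), while the remaining pair, with log2 differences of -0.19 and -0.14, were not called.

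**Figure D5:**
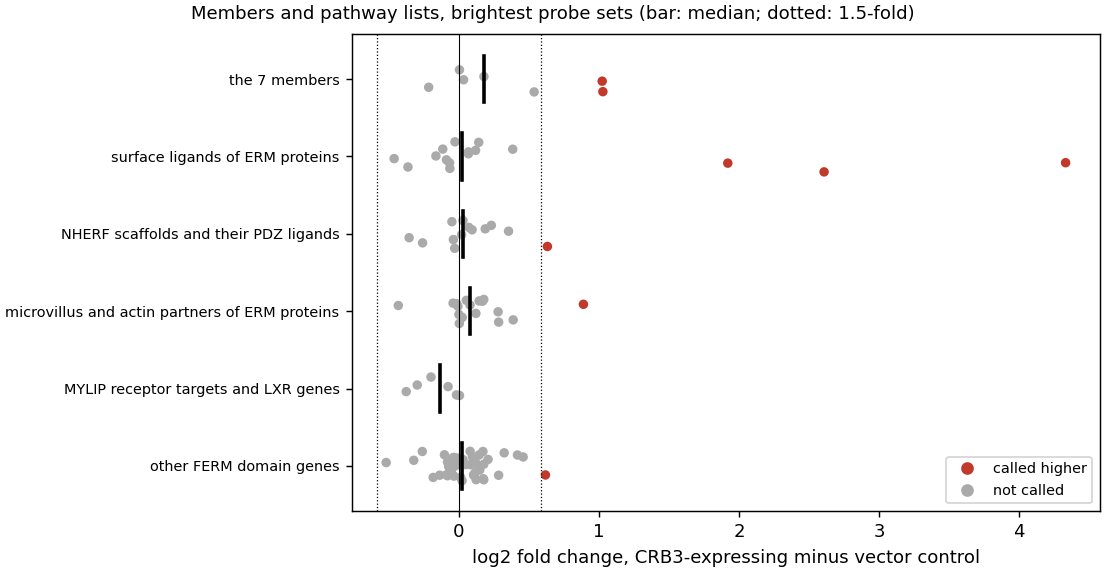
Log2 fold change, CRB3 minus vector (x axis), of the 7 members and of each measured gene of 5 pathway lists (y axis), 1 point per gene in its brightest probe set, red where called higher; black bars are medians and dotted lines mark a 1.5-fold change. Called genes lie to the right in the members and in 4 of the lists, up to CRB3 at 4.33, and the medians of the lists lie between -0.14 and 0.080.

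The genes whose values over the 6 arrays were most like those of PODXL, the member with the smallest p, were CLDN1 (Pearson's r 0.9993), TPM1 (0.9992), EFEMP1 (0.9992), SERPINB1 (0.9991) and CSGALNACT1 (0.999). CLDN1 encodes a claudin of tight junctions and TPM1 a tropomyosin. All 5 had higher means in CRB3 cells, with log2 differences between 0.54 and 1.68. The 6 arrays fall into 2 groups, so any gene with a difference between them and little spread gives a high r, and the values are a description of 6 points.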

How the data were processed

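Total RNA of 3 CRB3-expressing and 3 vector control MCF-10A samples was hybridized to 6 Affymetrix Human Genome U133 Plus 2.0 arrays. Background correction and normalization by Robust Multichip Average were done by the authors (its version is not given in the sources used here), and the deposited log2 values, 1 for each probe set on each array, were used as they stand. They carry no detection call, a dim probe set can show too small a change, and precision is limited by how few arrays there are.

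Groups came from the sample titles. The test was limma 3.58.1 (R 4.3.3), with lmFit and eBayes on the difference CRB3 minus vector over 54613 probe sets, without the 62 control probe sets, p-values adjusted after Benjamini and Hochberg across the whole table, and both thresholds that the study's methods set (adjusted p 0.05, fold 1.5). The platform annotation gave 1 symbol to 41091 probe sets, several to 1801 (0 of them with a member's symbol) and none to 11721, and identifiers were checked against a RefSeq table of GRCh38.p14. List genes with no such probe set were not analysed here, and 1 list is not reported here. A gene is read in its probe set with the highest mean.

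The text names all members, the called genes of each list (at most 4, or the 2 smallest p-values) and the 5 genes most like the member with the smallest p. Cell type markers are named too. CD44, PDPN, ICAM1, MCAM and NF2 were added after their values were seen, each in its brightest probe set alone. Members and lists were chosen with earlier results of these data known. The steps were tested on simulated data, 3 arrays against 3. Of 100 probe sets given a log2 change of 1 in either direction, 91 were called in the right direction. Of 100 given 0.6, near the fold threshold, 40 were, and of 54413 given no change 0 were called. A change of about that size was thus often not called. The alternatives were other priors, scalings, filters, fold thresholds, probe set rules, array weights, a replicate block and leaving out each array.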

Additional observations from a re-analysis of the deposited data

How the results depend on the processing

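PODXL and PDZK1IP1 were called under all alternatives that tested them, at log2 fold changes of 0.99 to 1.08 and 0.97 to 1.12. With no fold threshold, EZR passed too in its brightest probe set (0.54). Of the member probe sets 7 were then called higher and 2 lower, against 2.24% and 1.39% of all probe sets. Over the pathway lists 12 genes, CRB3 among them, were higher and 4 lower, where 3.37% of all genes passed higher and 1.77% lower. With only probe sets of a mean over 7, 2 member probe sets and 1 member gene were called higher and 0 probe sets lower, since PDZK1IP1 and MYLIP 228098_s_at were left out there. With an ordinary pooled variance, and with limma's test against the fold threshold (treat), 0 member probe sets were called lower. Treat called 3 list genes higher, CRB3 among them. The sign of MSN turned after median-centring (-0.0082) and quantile normalization (-0.00057), and that of MYLIP with the mean over probe sets (-0.24). Without probe sets that may match several transcripts, EZR was read in 217230_at alone, at 0.27.

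Without single arrays, the log2 fold change of MSN ranged from -0.010 to 0.019 (its dim probe set -0.022 to 0.013), that of MYLIP from -0.017 to 0.11 (220319_s_at from -0.21 to 0.024 and 228097_at from -0.22 to 0.029), and that of RDX 244739_at from -0.067 to 0.021. Member probe sets called lower ranged from 0 to 1, with 0 without CRB3 replicate 2 or vector control replicate 1, and list genes called lower from 0 to 1, with 1 without CRB3 replicate 1.

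The replicate numbers are not known to pair the samples: deviations of same-numbered arrays correlated at -0.0848, 0.0638 and 0.0292. With the replicate block, 4 member probe sets were called higher and 1 lower, the same counts as without it, and EZR minus MSN, at 0.53, had a sign-flip p of 0.25, the smallest that 3 pairs allow (exact test). The block changed no call at both thresholds. Arrays give no counts, so depth cannot be stated, and probe sets under 6 may lie near background.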
